A study of Mus musculus with 9 samples.

Results

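Polycomb repressive complex 1 (PRC1) was described here through 9 of its subunit genes, Cbx2, Cbx6, Cbx7, Cbx8, Ring1, Rnf2, Bmi1, Pcgf2 and Phc1, in cultures of mouse duodenal organoids. The 9 genes were taken by symbol from a table of 24505 genes measured by global run-on sequencing (GRO-seq), which captures RNA being made by engaged polymerases, so that its values follow transcription rather than stored RNA. The same symbols were looked up in 2 lists of regions that differ in trimethylated lysine 27 of histone H3 (H3K27me3), where they named 12 of 35798 regions with more of the mark in RANKL and 0 of 13607 regions with more of it in WENRC. All 9 genes passed the filter on low values, which required at least log2 of 10 in at least 2 libraries and kept 16563 genes.

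The labels name 3 cultures. RANKL is labelled intestinal M-cell, the epithelial cell that samples antigen over lymphoid follicles; ENRI is labelled enterocyte, the absorptive cell; and WENRC is labelled intestinal stem cell. Each culture had 2 GRO-seq libraries. The ENRI and WENRC libraries carry mouse numbers, so that each of the 2 mice gave 1 library of each culture, whereas the RANKL libraries carry only a replicate number. H3K27me3 came from 2 RANKL libraries that the authors pooled and 1 WENRC library. The components behind the culture abbreviations, and the strain, age, sex and genotype of the mice, are not given in the sources used here, and nothing says that the RANKL libraries came from separate animals, so p-values measure only the spread between these libraries. The cultures are bulk samples, in which fewer cells of a type and less RNA per cell cannot be told apart.

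Canonical PRC1 is assembled around a RING protein, Ring1 or Rnf2 (also called RING1B), the E3 ligase that places ubiquitin on a lysine near the end of histone H2A, paired with a PCGF protein, which in canonical complexes is Bmi1 or Pcgf2 (also called Mel18). A chromobox protein (such as Cbx2, Cbx6, Cbx7 or Cbx8) carries a chromodomain that can bind H3K27me3, the mark laid down by PRC2, and a polyhomeotic protein such as Phc1 polymerises through its SAM domain and helps compact chromatin. Variant PRC1 replaces the chromobox and polyhomeotic subunits with Rybp or Yaf2 and uses other PCGF proteins. In the intestine Bmi1 has been used as a marker of a crypt cell population.

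Sequence upstream of the start site was compared for the members, because regions of differing H3K27me3 lay at or near the start sites of Cbx6, Cbx8 and Bmi1. The 250 bases before the start were available for 8 of the 9 members from RefSeq, build GRCm38.p6. The letters CACGTG, an E-box that reads the same on both strands and contains a CG, were found in 4 of the 8. The motif was chosen after the sequences had been read, and 6.02% of 32851 promoters held it in the same window. Those 4 windows are shown 5′ to 3′ with CACGTG in capitals, because they are the only ones of the 8 to hold it. The letters did not follow the mark: Pcgf2 holds them with no RANKL-higher region named for it, and Cbx7, named by 6 such regions of which the nearest edge lay 9.19 kb from its start, does not.
Bmi1: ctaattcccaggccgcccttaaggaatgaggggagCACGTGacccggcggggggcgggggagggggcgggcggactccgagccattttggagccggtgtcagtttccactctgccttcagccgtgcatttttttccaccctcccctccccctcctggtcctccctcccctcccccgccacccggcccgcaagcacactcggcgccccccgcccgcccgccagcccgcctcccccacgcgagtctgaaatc
Cbx6: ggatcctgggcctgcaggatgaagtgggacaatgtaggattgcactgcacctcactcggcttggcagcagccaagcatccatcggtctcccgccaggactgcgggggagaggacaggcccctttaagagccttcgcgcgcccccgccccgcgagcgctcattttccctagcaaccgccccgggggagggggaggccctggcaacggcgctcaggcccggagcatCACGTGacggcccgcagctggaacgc
Cbx8: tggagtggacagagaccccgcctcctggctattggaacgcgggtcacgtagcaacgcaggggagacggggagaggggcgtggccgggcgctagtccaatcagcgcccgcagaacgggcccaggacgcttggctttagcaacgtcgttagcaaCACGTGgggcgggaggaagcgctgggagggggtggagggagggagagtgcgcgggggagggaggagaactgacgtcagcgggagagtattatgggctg
Pcgf2: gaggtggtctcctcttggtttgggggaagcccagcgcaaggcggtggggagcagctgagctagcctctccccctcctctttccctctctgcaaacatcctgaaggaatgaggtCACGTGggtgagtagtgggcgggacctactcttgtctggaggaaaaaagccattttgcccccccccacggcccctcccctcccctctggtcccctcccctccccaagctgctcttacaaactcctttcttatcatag

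The Bmi1 window is chr2:18676768-18677017 on the plus strand, and its CACGTG begins 215 bases before the start. The Cbx6 window is chr15:79834334-79834583 on the minus strand, with CACGTG 26 bases before the start. For Cbx8, on the minus strand at chr11:119040914-119041163, the letters begin 98 bases before the start, and for Pcgf2, on the minus strand at chr11:97699649-97699898, 137 bases before it. The first 3 are rich in CG: Bmi1 held 21 CG dinucleotides, Cbx6 20 and Cbx8 22, while Pcgf2 held 5, against a median of 6 over all promoters. Of the 8 members, 6 had at least 20, a number reached by 17.9% of all promoters. Among promoters with at least 20, 10.1% held CACGTG. A match is a description of these letters and shows no binding.

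Transcription of Cbx2 was higher in RANKL than in both other cultures, and it was the only member to pass the test in any comparison. Values are the authors' log2 values, errors are the SD of 2 libraries, and a change is the first-named culture minus the second, tested with limma over all 16563 genes and called at a Benjamini-Hochberg false discovery rate (FDR) under 0.05. By that rule 1 of 9 members was called between RANKL and ENRI, where 20.9% of tested genes were called. Likewise 1 of 9 was called between RANKL and WENRC, where 12.1% of genes were. Between WENRC and ENRI limma called 0 of 9, where 14.6% of genes (2416) were called in a fit that ignores the mouse. With the mouse as a block in the 4 WENRC and ENRI libraries, 124 genes were called. With the replicate number as a block in all 6, which treats the RANKL numbers as mouse numbers too, 1506 were called. Under either block 0 of 9 members were called by limma. Without a block 0 of 9 had an unadjusted p under 0.05, and the authors' deposited table also called 0. That table called 2 of 9 members, Cbx2 and Cbx7, between RANKL and ENRI, where it called 19.6% of the tested genes, and 2, Cbx2 and Cbx6, between RANKL and WENRC, where it called 27.8%, while 12.5% were called between WENRC and ENRI. The median change of the members was 0.27 for RANKL minus ENRI, 0.01 for RANKL minus WENRC and 0.33 for WENRC minus ENRI, and that of all tested genes was -0.005, -0.01 and -0.01. The 3 comparisons share libraries in pairs, so their values are not independent of each other.

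**Figure D1:**
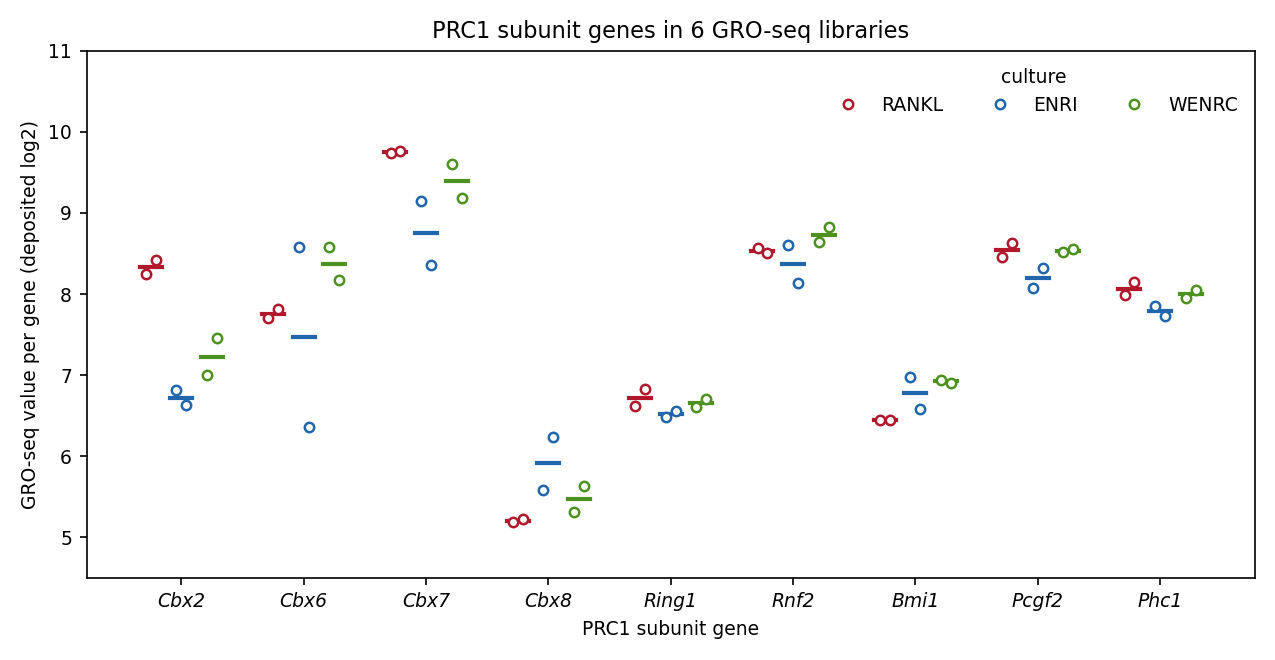
Deposited log2 GRO-seq value (vertical axis) of each of the 9 members in each of the 6 libraries, grouped by culture (RANKL, ENRI, WENRC); points are libraries and bars are culture means. For Cbx2 the RANKL points, at 8.24 and 8.42, lie above the other 4, and for Cbx6 the ENRI points lie far apart, at 8.59 and 6.36.

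Cbx2 (NM_007623, mm9 chr11:118884335-118892589, plus strand), a chromobox subunit that compacts nucleosomes, had values of 8.24 and 8.42 in RANKL, 6.81 and 6.63 in ENRI, and 7.01 and 7.45 in WENRC. Every RANKL library lay above every other library, and both WENRC libraries lay above both ENRI libraries. The change was 1.61 ± 0.21 (SE) for RANKL minus ENRI, with a 95% interval from 1.10 to 2.13 and a limma FDR of 0.00683, and 2.58% of tested genes had a larger positive change. For RANKL minus WENRC it was 1.10, interval 0.59 to 1.62, with a limma FDR of 0.0257, and 5.84% of genes had a larger one. WENRC minus ENRI was 0.51, interval -0.01 to 1.02, with a limma FDR of 0.157, and was 0.20 in mouse 1 and 0.82 in mouse 2. The authors' deposited table gave Cbx2 a change of 2.14 for RANKL minus ENRI and 1.42 for RANKL minus WENRC, with adjusted p of 1.85e-06 and 7.76e-05.

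Those Cbx2 calls needed both RANKL libraries, and the call against WENRC needed both WENRC libraries too. Leaving 1 of these libraries out also cost most calls over all genes, so the loss is not particular to Cbx2. Without RANKL 1 or RANKL 2 the change from ENRI was 1.70 or 1.52 with limma FDRs of 0.0715 and 0.0943, in fits that called 111 and 64 of all genes in place of 3464. The change from WENRC lost its call without either RANKL library or either WENRC library, with changes from 0.88 to 1.33 and limma FDRs from 0.0758 to 0.234. The direction was the same in all of these fits. The RANKL values combine reads from a repeat sequencing, per the file header, so that sequencing run and culture cannot be told apart in any comparison with RANKL.

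Cbx7 (NM_144811, chr15:79746237-79763076, minus strand), the chromobox subunit best known from stem and progenitor cells, had values of 9.74 and 9.77 in RANKL, 9.15 and 8.36 in ENRI, and 9.60 and 9.18 in WENRC. The RANKL libraries lay above all others, but the ENRI libraries were spread, with an SD of 0.56. RANKL minus ENRI was 1.0, interval 0.30 to 1.69, with a limma FDR of 0.0556, just short of the call, and it was called in 6 of 15 other settings. Without ENRI 1 it was 1.39 with a limma FDR of 0.0013, and without ENRI 2 it was 0.60 with a limma FDR of 0.0515. With the replicate number as a block the limma FDR was 0.0417 in 6 libraries and 0.0847 in the 4 compared, and in the authors' deposited table the change was 1.10 with an adjusted p of 0.0382. RANKL minus WENRC was 0.36 (limma FDR 0.456) and WENRC minus ENRI was 0.64 (limma FDR 0.181).

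Cbx8 (NM_013926, chr11:118899750-118902227, minus strand), the chromobox neighbour of Cbx2, had its lowest values in RANKL. They were 5.18 and 5.23 in RANKL, 5.58 and 6.24 in ENRI, and 5.31 and 5.63 in WENRC, the lowest level of any member before length is taken into account. RANKL did not overlap either other culture. RANKL minus ENRI was -0.71, interval -1.38 to -0.04, with a limma FDR of 0.121, which misses the threshold. It was -1.04 and called without ENRI 1, at a limma FDR of 0.0123, and -0.37 without ENRI 2. RANKL minus WENRC was -0.27 with a limma FDR of 0.575. The authors' deposited table gave Cbx8 -1.54 for RANKL minus ENRI and -0.64 for RANKL minus WENRC, with adjusted p of 0.161 and 0.597.

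Cbx6 (NM_028763, chr15:79654328-79664763, minus strand) could not be compared firmly. Its values were 7.71 and 7.81 in RANKL, 8.59 and 6.36 in ENRI, and 8.58 and 8.17 in WENRC. The 2 ENRI libraries fell on opposite sides of RANKL, with an SD of 1.58, the widest of any member in any culture. RANKL minus ENRI was 0.29, interval -1.34 to 1.92, with a limma FDR of 0.790. It was 1.40 and called higher without ENRI 1, and -0.83 and called lower without ENRI 2, with limma FDRs of 0.0022 and 0.0239. RANKL minus WENRC was -0.61 with a limma FDR of 0.597, which became 0.03 when only those 4 libraries were fitted. The authors' deposited table had Cbx6 lower in RANKL than in WENRC by -0.82, with an adjusted p of 0.0248. The gene shares its start with Npcd (NM_001013360, chr15:79616781-79664763) on the same strand, and reads over the shared stretch cannot be divided between them. The listed values of Npcd were 8.12 and 8.33 in RANKL, 9.09 and 6.92 in ENRI, and 9.14 and 8.86 in WENRC, with the same low ENRI 2 library.

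Per unit of gene length Cbx2 stood higher among the members in RANKL than in the other cultures. On the scale of the log2 value minus log2 of the gene length in kb, Cbx7 had the highest mean of the 9 members in each culture, at 5.68 in RANKL, 4.68 in ENRI and 5.32 in WENRC. In ENRI this held in neither library, where Cbx6 exceeded it in ENRI 1 and Cbx8, Pcgf2 and Ring1 in ENRI 2. Cbx2 stood next in RANKL at 5.29, but at 3.68 in ENRI and 4.18 in WENRC it lay below Cbx7, Pcgf2, Ring1 and Cbx6. Those levels of Cbx2 exceeded 83.8% of all tested genes in RANKL, 50.8% in ENRI and 62.9% in WENRC. Within single libraries Cbx2 exceeded Cbx8 by 1.33 and 1.46 in RANKL, while the difference was -0.51 and -1.35 in ENRI and -0.04 and 0.08 in WENRC.

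As shares of the summed length-scaled signal of Cbx2, Cbx6, Cbx7 and Cbx8, Cbx2 took 30.1% and 32.0% in RANKL, 13.2% and 17.2% in ENRI, and 13.6% and 20.5% in WENRC. The Cbx2 share was thus higher in both RANKL libraries than in the other 4. Cbx7 took 41.5% and 39.8% in RANKL, 32.6% and 27.9% in ENRI, and 40.3% and 33.4% in WENRC. The share of Cbx8 was 12.0% and 11.6% in RANKL, below its 18.7% and 43.7% in ENRI and its 14.01% and 19.4% in WENRC. Cbx6 took 16.4% and 16.6% in RANKL, 35.6% and 11.2% in ENRI, and 32.0% and 26.7% in WENRC, and its low value in ENRI 2 goes with the high Cbx8 share of that library. Shares of 1 sum move together, so a larger share of one gene lowers the others. The deposited log2 values may also understate differences between libraries, above all for genes of low level. For RANKL minus ENRI, Cbx8 had -0.71 in these values and -1.54 in the authors' deposited table, and Cbx2 had 1.61 and 2.14.

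**Figure D2:**
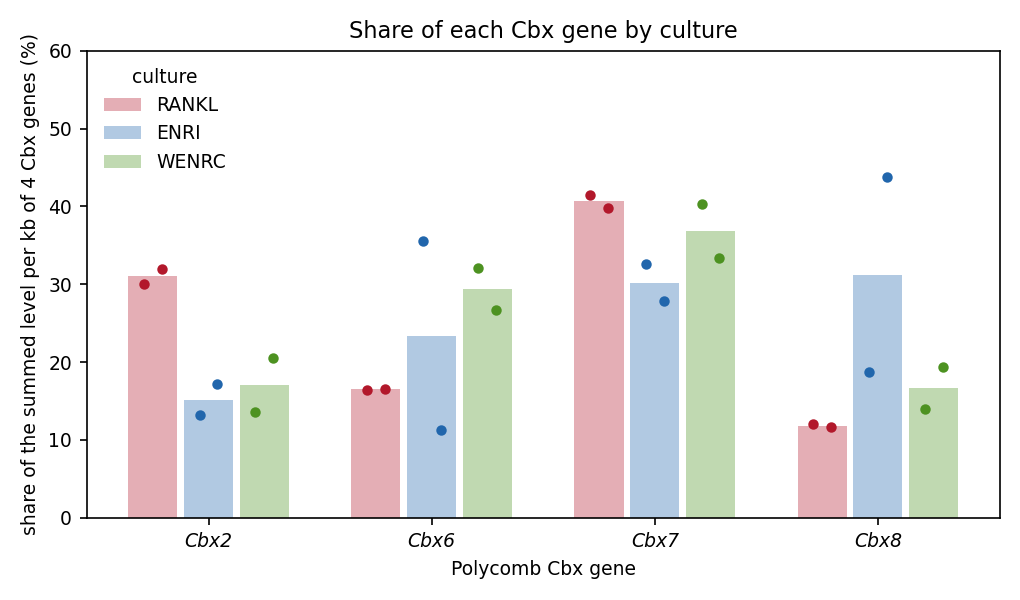
Share in percent of the summed length-scaled GRO-seq signal of the 4 chromobox members (vertical axis), for each gene by culture; points are the 2 libraries of a culture and bars their mean. The RANKL points of Cbx2 stand at 30.1% and 32.0%, and the other 4 at no more than 20.5%.

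The RING proteins, which every PRC1 needs, showed small differences. Ring1 (NM_009066, chr17:34157737-34161625, minus strand) had values of 6.62 and 6.83 in RANKL, 6.49 and 6.55 in ENRI, and 6.61 and 6.71 in WENRC. Rnf2 (NM_011277, chr1:153316536-153347953, minus strand) had 8.57 and 8.51 in RANKL, 8.61 and 8.14 in ENRI, and 8.64 and 8.83 in WENRC. Neither passed the test in any comparison. For Ring1 RANKL minus ENRI was 0.20, interval -0.24 to 0.64, and RANKL minus WENRC was 0.06, interval -0.38 to 0.50. The matching values for Rnf2 were 0.16, interval -0.31 to 0.64, and -0.20, interval -0.67 to 0.28. These intervals leave room for changes of up to 0.64 in size towards higher and 0.67 towards lower values, and they do not show that the levels were equal. Per length Ring1 exceeded Rnf2 in each of the 6 libraries, and its share of the summed pair was 69.7% in RANKL, 69.0% in ENRI and 65.8% in WENRC as culture means.

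The PCGF pair differed in which culture was lowest. Bmi1 (NM_007552, chr2:18598645-18608256, plus strand) had 6.44 in both RANKL libraries, 6.98 and 6.58 in ENRI, and 6.95 and 6.91 in WENRC, so RANKL lay below all 4 others. RANKL minus ENRI was -0.34, interval -0.83 to 0.15, with a limma FDR of 0.275, and RANKL minus WENRC was -0.48, interval -0.97 to 0.00, with a limma FDR of 0.173. Pcgf2 (NM_009545, chr11:97550137-97561811, minus strand) had 8.46 and 8.63 in RANKL, 8.08 and 8.32 in ENRI, and 8.52 and 8.55 in WENRC, with ENRI below the rest. Pcgf2 gave 0.34 for RANKL minus ENRI (limma FDR 0.174) and 0.01 for RANKL minus WENRC (limma FDR 0.972). Neither gene passed the test.

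Per length Pcgf2 exceeded Bmi1 in each of the 6 libraries, by 1.73 and 1.91 in RANKL, 0.82 and 1.46 in ENRI, and 1.29 and 1.36 in WENRC. The gap was wider in both RANKL libraries than in the other 4. Pcgf2 thus took 76.9% and 79.0% of the pair in RANKL, 63.9% and 73.4% in ENRI, and 71.0% and 72.0% in WENRC.

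Phc1 (NM_001271579, chr6:122267749-122290245, minus strand), the polyhomeotic member, had 7.99 and 8.14 in RANKL, 7.85 and 7.73 in ENRI, and 7.945 and 8.05 in WENRC. The means were 8.06 ± 0.11 (SD) in RANKL, 7.79 ± 0.09 in ENRI and 8.0 ± 0.07 in WENRC. ENRI lay below both other cultures. RANKL minus ENRI was 0.27, interval -0.10 to 0.65, with a limma FDR of 0.253, and WENRC minus ENRI was 0.21 with a limma FDR of 0.412, so neither was called.

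Counted in either direction, the share of members whose libraries did not overlap was near that of all tested genes. RANKL and ENRI did not overlap in 7 of the 9 members, 5 higher and 2 lower in RANKL, and in 64.7% of all tested genes, 32.4% higher and 32.3% lower. RANKL and WENRC did not overlap in 6 of 9, against 68.6% of genes, 34.1% higher and 34.5% lower, with Cbx2 and Cbx7 higher and Cbx6, Cbx8, Rnf2 and Bmi1 lower in RANKL. WENRC and ENRI did not overlap in 6 of 9, all 6 higher in WENRC, against 58.5% of genes, 29.3% higher and 29.2% lower. Within mice, WENRC minus ENRI had the same sign in both mice for 7 of 9 members, against 74.5% of genes, and Cbx6 and Bmi1 were the exceptions.

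**Figure D3:**
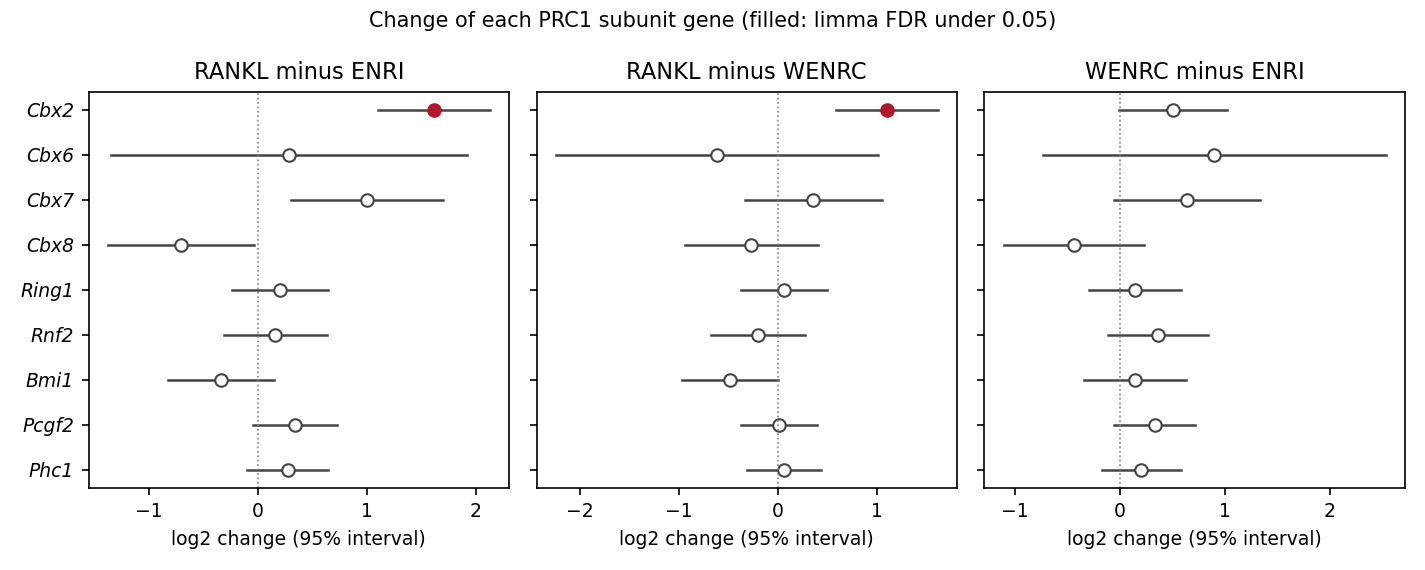
Log2 change (horizontal axis) of each of the 9 members in the 3 comparisons, first-named culture minus second, with points at the limma estimate and bars for its 95% interval; filled points passed an FDR of 0.05. Cbx2 is the only filled gene, at 1.61 for RANKL minus ENRI and 1.10 for RANKL minus WENRC, and the Cbx6 intervals are the widest.

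The order of all 9 members by length-scaled level was clearest in RANKL. There it ran Cbx7, Cbx2, Pcgf2 (5.0), Ring1 (4.76), Cbx6 (4.38), Cbx8 (3.90), Phc1 (3.57), Rnf2 (3.56) and Bmi1 (3.18), and every pair of neighbours except Phc1 and Rnf2 was separate in both libraries. In ENRI the means ran from Cbx7 at 4.68 through Pcgf2, Cbx8, Ring1, Cbx6, Cbx2, Bmi1 and Rnf2 to Phc1 at 3.30, and no pair of neighbours was separate. In WENRC they ran from Cbx7 through Cbx6, Pcgf2, Ring1, Cbx2, Cbx8, Rnf2 and Bmi1 to Phc1 at 3.51, and the separate neighbours were Pcgf2 above Ring1, Ring1 above Cbx2, Cbx8 above Rnf2, and Bmi1 above Phc1. The median of all tested genes on this scale was 3.69, 3.63 and 3.65 in RANKL, ENRI and WENRC.

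Transcription of cell type markers also differed between the cultures, which in bulk samples does not give the number of cells of a type. For scale, 10.4% of tested genes had a higher call for RANKL minus ENRI and 8.53% for RANKL minus WENRC. For WENRC minus ENRI the share was 4.85%. Lower calls made up 10.5%, 3.62% and 9.74% in the same order. Of the M cell markers 10 of 11 tested were called higher in RANKL than in ENRI and 9 higher than in WENRC, with summed log2 levels of 13.7 and 13.8 in RANKL and 10.95 to 11.7 in the others. Of 10 stem cell markers 5 were higher in RANKL than in ENRI, and 8 were higher in WENRC than in ENRI. Enterocyte markers were higher in ENRI, 5 of 10 against RANKL and 9 of 10 against WENRC, and 4 of 10 were higher in RANKL than in WENRC. For cycling cells 7 of 8 markers were higher in WENRC than in ENRI and 2 higher and 1 lower in RANKL than in ENRI, and their summed level was 12.4 and 12.6 in RANKL, 11.7 and 11.4 in ENRI, and 12.7 and 12.5 in WENRC. Paneth and tuft markers had 2 of 5 and 2 of 4 tested genes higher in RANKL than in each other culture, enteroendocrine markers 1 of 6, and goblet markers 1 of 7 higher than in ENRI and 4 of 7 higher than in WENRC. Of the immune markers 0 of 4 tested, and of the stromal markers 0 of 2, were called by limma in any comparison, with at most 1 of either at an unadjusted p under 0.05, and Cd3e, Col1a1, Col1a2, Pdgfra and Vim were at or under log2 of 10 in all 6 libraries. The part of these differences in the Cbx2 result was not tested.

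The genes whose profiles over the 6 libraries lay nearest to those of the 2 members with the widest range of culture means were named by the distance between centred log2 values. For Cbx2 they were Psmd7, a proteasome subunit, at a distance of 0.18, Blnk, an adaptor best known from B cell receptor signalling, at 0.23, and Glipr2 at 0.25. For Cbx7 they were H2afy, which encodes the histone variant macroH2A1, Nucks1 and Rsl1d1, at 0.20, 0.20 and 0.23. The 6 points of each profile share cultures and libraries.

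Among the H3K27me3 regions, 3 of the 9 members (33.3%) were named by a RANKL-higher region, Cbx8 by 4, Cbx7 by 6 and Bmi1 by 2, close to the 32.3% of tested genes so named. None of the 9 was named by a WENRC-higher region, against 23.3% of tested genes, and 5.01% had such a region within 5 kb of a start site and 3.92% at least 4 such regions. Tags, folds and p-values are the authors' own for each region, each list holds 1 direction at a fold of at least 2, WENRC tags were scaled to the RANKL depth, and the differences have no replicate check. The depth worked out from the scaling of the tags was 32.7 M tags for RANKL and 36.3 M for WENRC. ENRI was not measured for this mark.

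The regions named for Cbx8 were the heaviest among the members and lay on both sides of it on chromosome 11, past the end of Cbx2. The largest, chr11:118903934-118913306 in mm9, began 1.71 kb upstream of the Cbx8 start, ran for 9.37 kb and held 691 RANKL tags against 262 scaled WENRC tags, a fold of 2.64, and 0.0615% of the RANKL-higher regions held more tags. The second, chr11:118894945-118899250, ran for 4.31 kb between the ends of Cbx2 and Cbx8, 2.36 kb past the one and 0.50 kb from the other, with 275 against 72 tags and a fold of 3.82. Further upstream, chr11:118915757-118917482 had 168 against 74.7 tags and a fold of 2.25, and chr11:118919038-118919874 had 38 against 9.9 tags and a fold of 3.84. Summed over their 16.2 kb, the 4 regions held 72.2 tags per kb in RANKL and 25.8 in WENRC. Cbx8 thus had RANKL-higher H3K27me3 on both sides, beside a RANKL minus WENRC change in transcription of -0.27 that missed the test.

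No region was named for Cbx2, and the nearest RANKL-higher edge lay 10.6 kb from its start site. Beside these regions Cbx2 was called higher in RANKL than in WENRC in GRO-seq, by the 1.10 given above, while Cbx8 had -0.27.

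**Figure D4:**
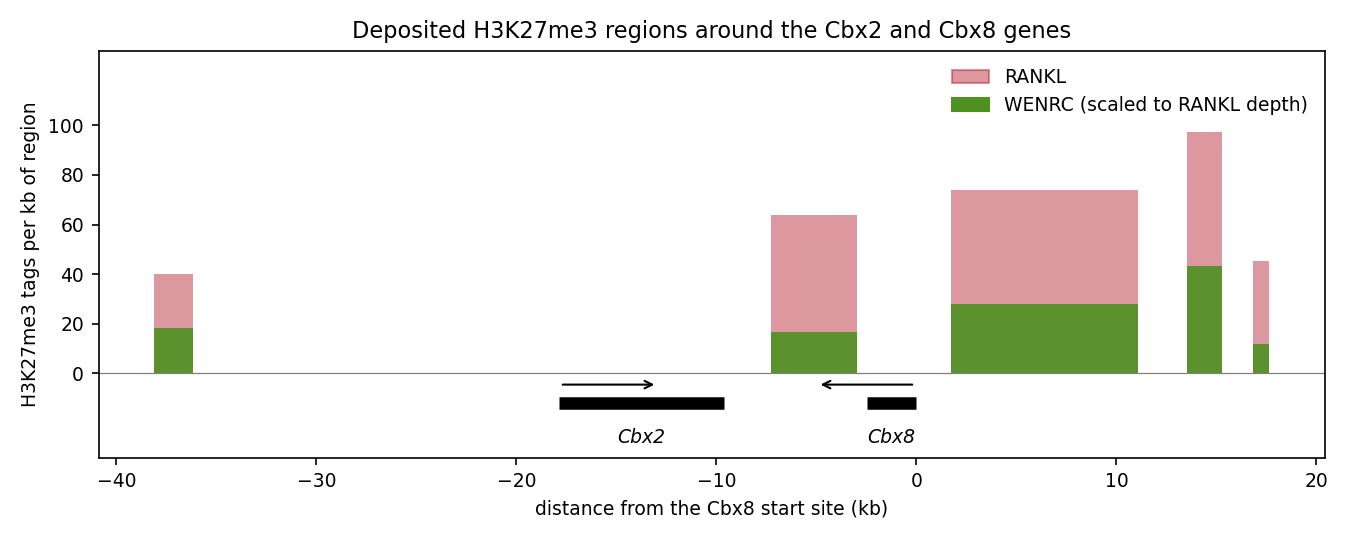
Map of the Cbx2 and Cbx8 neighbourhood drawn to scale, with distance in kb from the Cbx8 start site on the horizontal axis and H3K27me3 tags per kb of region on the vertical axis. The full height of a bar is RANKL, the green part WENRC scaled to the RANKL depth, and black boxes with arrows are genes and their direction. The 4 regions named for Cbx8 lie past the end of Cbx2 and cover 16.2 kb, none lies over Cbx2, and the region at the far left is named for Enpp7.

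Bmi1 carried its regions inside the gene. In intron 1, chr2:18599083-18599583 lay 688 bases past the start with 31 RANKL tags against 12.6 scaled WENRC tags, a fold of 2.46, and chr2:18600512-18601803 lay 2512 bases past it with 62 against 23.4 tags, a fold of 2.65. Bmi1 was the 1 member of 9 with a named RANKL-higher region centred within 5 kb of a start site, against 18% of tested genes. Both folds were below the median of 2.92 over the RANKL-higher regions.

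The 6 regions named for Cbx7 were all intergenic and upstream, centred from 9.59 to 30.4 kb before the start, with folds from 2 to 4.76. The highest fold belonged to the farthest, chr15:79793199-79793826, with 30 RANKL tags against 6.3 scaled WENRC tags. Together the 6 covered 5.02 kb with 47.0 tags per kb in RANKL and 17.4 in WENRC. Having at least 4 named RANKL-higher regions, as Cbx7 and Cbx8 do, was seen for 10.9% of tested genes.

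At Cbx6 the lists depend on how a region is given a gene. No region is named for it, yet chr15:79662555-79665746, named for Npcd, covers the start site that both genes share. The 3.19 kb region held 145 RANKL tags against 33.3 scaled WENRC tags, a fold of 4.35 that 9.13% of RANKL-higher regions exceeded. In GRO-seq the RANKL libraries of Cbx6, 7.71 and 7.81, lay below the WENRC libraries, 8.58 and 8.17. The limma fit of all 6 libraries did not call this difference. The fit of only those 4 libraries and the authors' deposited table did, as given above. For the other 4 members the nearest RANKL-higher edge was 14 kb from the start for Ring1, 26.8 kb for Phc1, 68.4 kb for Pcgf2 and 90.1 kb for Rnf2.

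Beyond the 9 members, 27 other PRC1 genes were read from lists of 5 canonical and 22 variant subunits and partners. Of the 27, 9 were called higher and 2 lower in RANKL than in ENRI, with a median change of 0.38, against 10.4% and 10.5% of tested genes. From WENRC, 6 were called higher and 1 lower in RANKL, with a median of 0.26, against 8.53% and 3.62% of genes. Between WENRC and ENRI 4 were called higher and 1 lower in WENRC, with a median of 0.24, against 4.85% and 9.74% of genes. With the replicate number as a block in 6 libraries 1 of these 27 was called, beside 1506 of all tested genes. With the mouse as a block in the 4 WENRC and ENRI libraries 0 of the 27 were, beside 124 of all tested genes. These are counts over 27 genes, and the list itself was not tested. With either RANKL library left out, most or all calls of the 27 in the RANKL comparisons were lost. The same held over all tested genes, so the loss is not particular to the 27.

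Kdm2b, the CxxC protein that recruits variant PRC1 to unmethylated CpG islands, had values of 11.44 and 11.56 in RANKL, 9.19 and 8.76 in ENRI, and 9.59 and 9.51 in WENRC. Its change was 2.53 ± 0.18 (SE) for RANKL minus ENRI and 1.95 for RANKL minus WENRC, with limma FDRs of 0.00197 and 0.00355. Without RANKL 2 the changes were 2.46 and 1.89 with limma FDRs of 0.0522 and 0.0845. Kdm2b also carried a WENRC-higher region, chr5:123350910-123351536, with 28.8 scaled WENRC tags against 11 RANKL tags and a fold of 2.62. It is annotated as promoter of the transcript NM_013910, inside the gene NM_001003953 (chr5:123320681-123439108, minus strand) whose values are given here. Within 5 kb of a start site, 5 of the 22 variant genes had a RANKL-higher region and 2 a WENRC-higher one. The matching shares of tested genes were 18% and 5.01%. The 5 with a RANKL-higher region were Auts2, Bcor, Bcorl1, E2f6 and Yaf2. For RANKL minus WENRC, the cultures in which the mark was compared, Bcorl1 (1.09) was called higher. Auts2 (0.60), Bcor (-0.22), E2f6 (-0.39) and Yaf2 (0.26) were not called in that comparison.

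Pcgf5, which pairs with the RING proteins in a variant complex, had values of 10.78 and 10.81 in RANKL and 9.75 and 9.64 in WENRC, and rose by 1.54 from ENRI and 1.09 from WENRC, with limma FDRs of 0.00442 and 0.0145. The other variant genes called higher in RANKL than in ENRI were Auts2 (1.45), Cbx3 (1.31), Pcgf6 (1.27), Bcorl1 (0.77) and Mga (0.59), with limma FDRs from 0.00774 to 0.0412. Mga was called in 5 of 15 other settings and missed the call under both replicate blocks and in the authors' deposited table (adjusted p 0.0994), and Bcorl1 missed it under the block in 4 libraries. Against WENRC they were Bcorl1 (1.09), Fbrs (0.84) and Rybp (0.56), with limma FDRs from 0.00792 to 0.0421, and Fbrs and Rybp lost the call under the replicate block in 6 libraries. Between WENRC and ENRI, Bcor (1.05), Auts2 (0.85) and E2f6 (0.85) were called higher and Max (-0.71) lower in WENRC. With the replicate number as a block all 4 genes lost the call, in 6 libraries and in the 4 compared, where it is the mouse. They also lost it in those 4 libraries without a block. Auts2 and Fbrs overlap other listed genes, so their reads may be shared.

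Of the other canonical genes, Scml4 (1.45) and Phc3 (1.13) were called higher in RANKL than in ENRI, with limma FDRs of 0.00315 and 0.0164. Phc2 (-0.51) and Scmh1 (-1.30) were called lower, with limma FDRs of 0.0476 and 0.0371. Phc2 was called in 5 of 15 other settings and missed the call under both replicate blocks and in the authors' deposited table (adjusted p 0.145). Scmh1 was called in 9 of 15 and missed it with only the 4 libraries compared, with or without the block. Scmh1, a polyhomeotic-binding SAM domain protein, had values of 8.62 and 8.57 in RANKL, 10.41 and 9.38 in ENRI, and 10.30 and 10.29 in WENRC, and was lower in RANKL than in WENRC by -1.70 with a limma FDR of 0.0246. Its RANKL-higher region chr4:120077852-120079157 lay 618 bases past the start, with 73 RANKL tags against 5.4 scaled WENRC tags and a fold of 13.5. Within 5 kb of a start site 3 of the 5 other canonical genes, Phc2, Scmh1 and Scml2, had a RANKL-higher region and 0 a WENRC-higher one. Scml4 was also higher in RANKL than in WENRC by 0.66 (limma FDR 0.0293) and in WENRC than in ENRI by 0.78 (limma FDR 0.0198), calls lost under the block in 6 libraries for the first and with only the 4 libraries compared, with or without the block, for the second. Short of the test were Phc3 for RANKL minus WENRC, at 0.83 (limma FDR 0.0513), and Phc2 for WENRC minus ENRI, at -0.53 (limma FDR 0.0535).

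**Figure D5:**
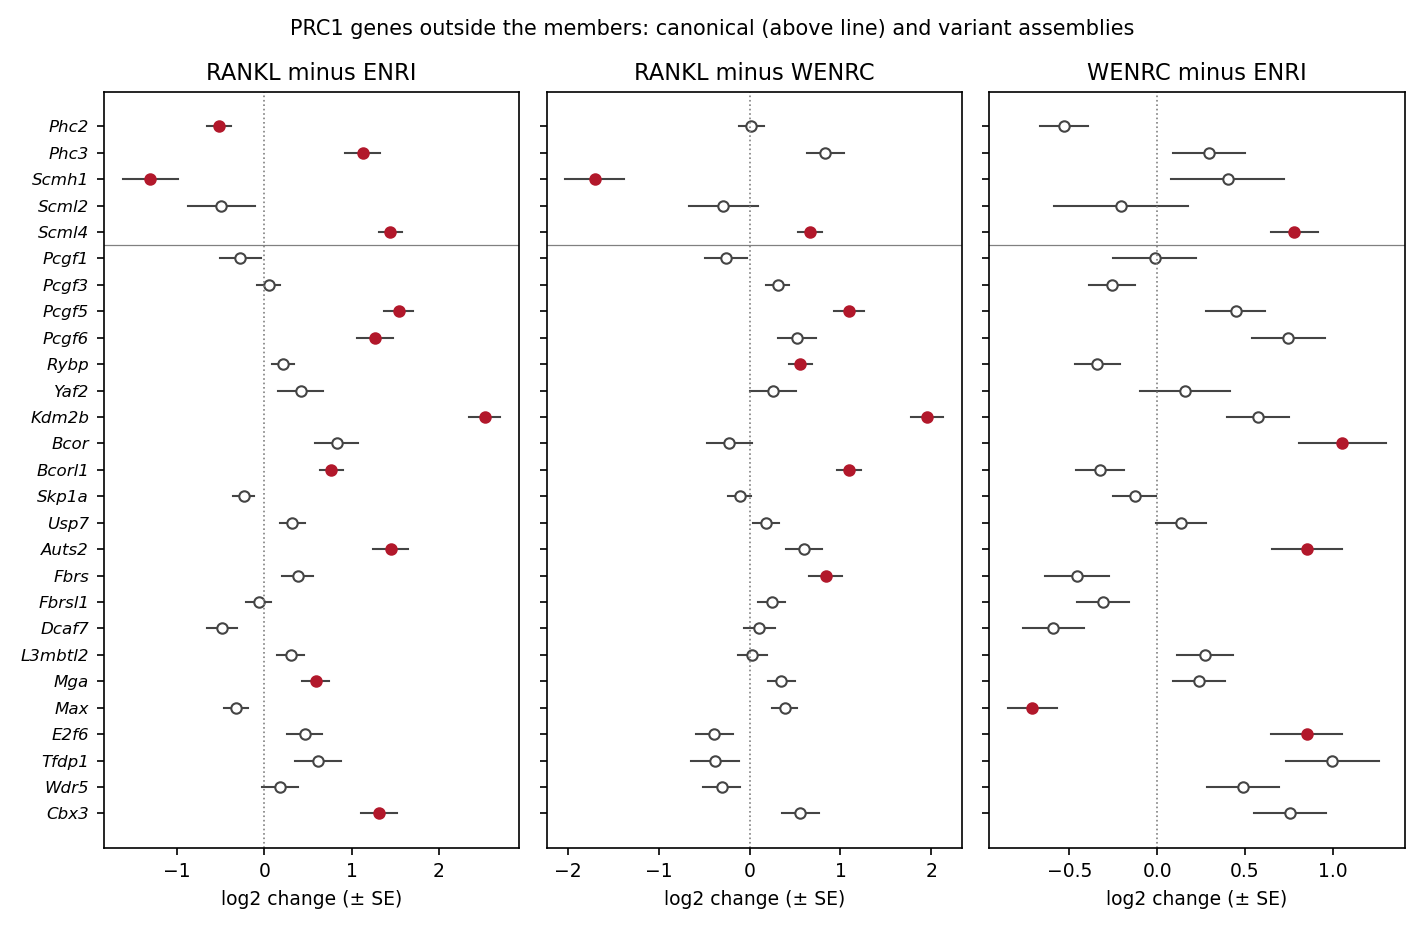
Log2 change (horizontal axis, first-named culture minus second) of the 27 other PRC1 genes in the 3 comparisons, with bars for ± SE, filled points for a limma FDR under 0.05 and a line between the 5 canonical and 22 variant genes. Kdm2b stands highest at 2.53 for RANKL minus ENRI and 1.95 for RANKL minus WENRC, and Scmh1 lowest at -1.30 and -1.70.

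The enzymes that act before and after PRC1 were counted as well. Of 6 core PRC2 genes, 3 were called higher in RANKL than in ENRI, against 10.4% of tested genes. They were Rbbp4 (1.02, limma FDR 0.0183), Ezh1 (0.79, limma FDR 0.0194) and Ezh2 (0.78, limma FDR 0.0481), and Ezh2 missed the call in the authors' deposited table (adjusted p 0.065). Ezh1, a methyltransferase of H3K27, was also higher in RANKL than in WENRC, by 0.82 with a limma FDR of 0.0238, where Rbbp4 had 0.59 (limma FDR 0.108). Of 11 genes linked to removal of ubiquitin from H2A, 1 was called higher in RANKL than in ENRI, near the same 10.4% of tested genes. It was Asxl2, by 0.67 with a limma FDR of 0.0328, the 1 called in any comparison. Next to it Mbd5 had 0.68 for RANKL minus ENRI (limma FDR 0.0575), and both missed the test against WENRC, Mbd5 at 0.59 and Asxl2 at 0.43. Between WENRC and ENRI, where 14.6% of tested genes were called, limma called 0 of the 6 PRC2 genes and 0 of the 11. At an unadjusted p under 0.05 were 2 of the 6 and 1 of the 11. The smallest p there belonged to Rbbp7 (0.45, limma FDR 0.0633) and Ezh2 (0.72, limma FDR 0.0704) of PRC2, and to Foxk2 (0.37, limma FDR 0.138) and Mbd6 (-0.37, limma FDR 0.239). At the Ink4 locus, a textbook target of PRC1, Cdkn2b was lower in RANKL than in ENRI by -1.02 and lower in WENRC than in ENRI by -1.21, with limma FDRs of 0.00993 and 0.0114. Cdkn2a had values of -0.51 and -0.60 in those comparisons, with limma FDRs of 0.391 and 0.341. Between RANKL and WENRC limma called 0 of these 2 genes, and 0 had an unadjusted p under 0.05.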

How the data were processed

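GRO-seq values are normalized log2 values that the authors deposited for 6 libraries. Per the file headers, reads were counted over genes with HOMER for mm9 and compared pairwise, and per the submitters' processing notes Bowtie2 2.3.4.1, HOMER and DESeq2 were used. The log2 values have the shape of DESeq2's regularized log, inferred from the values. How strand was counted is not given in the sources used here, and library depth is not known from these values. The deposited adjusted p-values and log2 changes of the authors were used as an alternative, with the sign turned so that each change is first-named minus second-named. The deposited H3K27me3 tables give tag signal (coverage), fold ratio and p-value per region as the authors computed them on pooled RANKL libraries and 1 WENRC library. Blank rows in the WENRC table, 12 in all, were dropped.

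Of 24505 genes, 2131 at 0 in all libraries and those under the filter were left out. limma 3.58.1 in R 4.3.3 with a variance trend fitted 3 culture means over 6 libraries, and the script was tested on simulated data. Each p is two-sided, with Benjamini-Hochberg adjustment across the tested genes. Named genes were all members, each other PRC1 gene called in any comparison or among the 3 smallest p, and the 2 smallest p per comparison in each smaller list. Regions were matched by deposited gene name, or by overlap of at least 1 base. Members and lists were chosen with earlier results of these data known, and 2 listed genes are not reported here. The mouse number pairs ENRI with WENRC per the labels, and deviations of the same mouse correlated at 0.41 across genes. The RANKL numbers pair with nothing in the labels (-0.20 with ENRI and -0.32 with WENRC). Alternatives changed the libraries fitted, the replicate block, filter, normalization, trend, tool and each library in turn.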

Additional observations from a re-analysis of the deposited data

How the results depend on the processing

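Cbx2 kept its direction in all 15 settings for both RANKL comparisons, from 1.52 to 2.14 against ENRI and from 0.88 to 1.42 against WENRC, and its call in 13 and 11 of them. Members called between RANKL and ENRI went from 1 to 2 with a replicate block, a filter at log2 of 50, upper quartile or quantile scaling, and in the authors' deposited table, and ranged from 0 to 4 with 1 library left out. Between RANKL and WENRC they went from 1 to 2 with only the 4 libraries compared, with or without a replicate block, and in the authors' deposited table, and ranged from 0 to 2 with 1 left out; between WENRC and ENRI they ranged from 0 to 4, the 4 (Cbx6, Cbx7, Cbx8 and Rnf2) without ENRI 1. With only 1 library left in a culture, that library is assumed to vary like the others.

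All genes called between RANKL and ENRI were 3464, but 1925 with only the 4 libraries compared, 1423 with a replicate block added to that, and 64 to 6966 with 1 library left out. For RANKL and WENRC the counts were 2012, 5194 and 4686, with 4604 in the authors' deposited table and 0 to 5176 with 1 left out; the 0 arose by limma without RANKL 1 or RANKL 2, with 2702 and 2486 genes at an unadjusted p under 0.05. For WENRC and ENRI they were 2416, 0 (4074 at an unadjusted p under 0.05) and 124, with 1506 under a replicate block in 6 libraries and 0 to 6650 with 1 left out. Other PRC1 genes called were 11 between RANKL and ENRI, 7 with a replicate block in 4 libraries, and 0 to 16 with 1 left out. Between RANKL and WENRC they were 7, then 14 with only 4 libraries, 4 and 11 with a replicate block in 6 and 4 libraries, 13 in the authors' deposited table, and 0 to 14 with 1 left out. Between WENRC and ENRI they were 5, then 0 with only 4 libraries, 1 and 0 with a replicate block in 6 and 4 libraries, 2 without a filter, 11 with upper quartile and with quantile scaling, 3 without a trend, 3 in the authors' deposited table, and 0 to 19 with 1 left out. The cause of these moves was not tested, beyond the fewer libraries fitted. Against the fit of the same libraries, the replicate block changed 1 call of a member, that of Cbx7 between RANKL and ENRI in 6 libraries. The call of Cbx6 between RANKL and WENRC in 4 libraries was the same with and without it.

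RANKL-higher regions of the members numbered 12, and 1 at a fold of at least 4, 2 within 5 kb of a start site and 3 by overlap with the gene body, in 3, 1, 1 and 2 members; WENRC-higher regions stayed at 0. Directions turned as follows. For RANKL minus ENRI, Cbx6 ranged from -0.83 to 1.40 and Rnf2 from -0.0727 to 0.40 with 1 library left out, both lowest without ENRI 2, and Cbx6 was -0.22 in the authors' deposited table. For RANKL minus WENRC, upper quartile scaling gave Ring1 -0.0535, Pcgf2 -0.10, Phc1 -0.0482 and Phc2 -0.10, and quantile scaling Pcgf2 -0.0225 and Phc2 -0.10. With 1 library left out Ring1 ranged from -0.0443 to 0.17, Pcgf2 from -0.0777 to 0.10, Phc1 from -0.0117 to 0.15 and Phc2 from -0.0647 to 0.10, each lowest without RANKL 2. For WENRC minus ENRI, Cbx6 ranged from -0.21 to 2.02, Bmi1 from -0.0518 to 0.34 and Scmh1 from -0.11 to 0.92, each lowest without ENRI 2. In settings that kept both libraries of each culture, none of the turned values passed the test. The calls of Cbx6 for RANKL minus ENRI with 1 ENRI library left out are given above. Under upper quartile scaling the all-gene median went from -0.01 to -0.12 for RANKL minus WENRC and from -0.01 to 0.10 for WENRC minus ENRI. The share of calls that were higher went from 70.2% to 53.3% (58.7% with quantile scaling) and from 33.2% to 54.1% (51.7%). With 2 libraries a culture and no depth for GRO-seq, a comparison that was not called leaves room for any change inside its interval.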
